A study of Rattus norvegicus with 8 samples.

Results

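miR-221 and miR-222 are a pair of microRNAs cut from neighbouring hairpins of 1 transcript on the X chromosome, and their mature arms were followed here in exosomes of rat intervertebral disc cells. Members were the rat-named rows of the deposited table whose mature name was miR-221-3p, miR-221-5p, miR-222-3p or miR-222-5p, summed per name. The table held 3 of these 4 names, each in 1 row, among 415 rat mature names (455 rat rows of 1512 rows in all), and miR-222-5p was not analysed here.

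Exosomes are small vesicles that cells release and that carry RNA, and small RNA was sequenced from 4 libraries of vesicles shed by nucleus pulposus cells (NPC), which populate the gelatinous disc core, and 4 of nucleus pulposus progenitor cells (NPPC). The labels give the tissue as intervertebral disc and the organism as Rattus norvegicus, and state no treatment, strain, sex or age for either group. Nothing in them ties a library to a culture or animal of its own. The p-values therefore take in the spread among these 8 libraries and no more, and that spread may be technical. In RNA from a mixed preparation, fewer vesicles or cells of a kind and less RNA in each cannot be told apart.

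A microRNA guides the Argonaute protein to messenger RNAs that pair with its seed, bases 2 to 8, and lowers their output. The 3p arms of miR-221 and miR-222 share a seed and are known for repressing Cdkn1b, which encodes the cell cycle inhibitor p27, and the receptor Kit. They are abundant in endothelial, smooth muscle and many cultured mesenchymal cells, and in smooth muscle they are usually associated with proliferation.

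The mature sequences show why the 3p arms are treated as a family and the 5p arms are not. They are given 5′ to 3′ from RefSeq (build GRCr8, plus strand of chromosome X), with the seed in capitals.
miR-221-3p: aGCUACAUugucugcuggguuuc
miR-222-3p: aGCUACAUcuggcuacugggu
miR-221-5p: aCCUGGCAuacaauguagauuuc
miR-222-5p: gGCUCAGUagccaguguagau
The 3p arms are identical over their first 8 bases. Position by position from the 5′ end, with no gap allowed, they are identical at 11 of the 21 positions of the shorter one. An alignment with gaps was not made. Among the rat mature sequences of RefSeq, 2 carried the seed GCUACAU, these 2 arms, and 2 deposited rows of any species name carried it. The seeds CCUGGCA and GCUCAGU each belonged to 1 mature sequence.

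The hairpins show where each arm lies, with both RefSeq arms in capitals.
Mir222: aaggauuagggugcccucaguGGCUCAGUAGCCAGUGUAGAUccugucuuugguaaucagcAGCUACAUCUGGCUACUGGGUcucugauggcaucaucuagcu
Mir221: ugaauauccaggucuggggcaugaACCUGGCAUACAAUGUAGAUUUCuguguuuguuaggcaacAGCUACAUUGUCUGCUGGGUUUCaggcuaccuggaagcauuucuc
In GRCr8 the hairpins lie at chrX:6022621-6022723 (Mir222) and chrX:6023182-6023290 (Mir221), both on the plus strand, with 458 bases between them. The deposited table placed identical hairpin sequences at X, 3683919 to 3684021 and 3684480 to 3684588, with the same 458 bases between them. The sources used here do not name the build behind those positions.

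Of the 3 rows, 2 were longer than the RefSeq arm at the 3′ end. The deposited sequences are shown because the counts were given under them, with bases past the RefSeq arm in capitals.
miR-221-3p row: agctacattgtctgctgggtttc
miR-222-3p row: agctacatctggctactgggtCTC
miR-221-5p row: acctggcatacaatgtagatttcT
The miR-222-3p row was 24 bases long, 3 more than the RefSeq arm, and the miR-221-5p row was 24 bases long, 1 more. The added bases match the hairpin. The seeds of the 3 rows were unchanged.

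Library totals ran from 329011 to 681591 counts in NPC and from 819845 to 1416940 in NPPC, with no overlap in depth between the groups. NPC replicate 1 stood apart. Its TMM factor, which corrects a library's total for its composition, was 1.64, while the others lay between 0.872 and 1.01. Over 278 rat names, which are not independent, a name's GC percent and its deviation from its mean in the other 7 libraries had a Spearman correlation of 0.855 in NPC replicate 1 and between -0.624 and -0.0469 in the others. The fold changes of the members, the shares, the likeness of patterns and the counts over lists are therefore given with and without it. All 6 mesenchymal marker miRNAs had rows, with a summed level of 175946 to 564636 CPM in NPC and 462007 to 541525 CPM in NPPC libraries (CPM being counts scaled to a common library total), and the 4 cartilage markers summed to 11436 to 16115 CPM and 8621 to 9260 CPM. No marker list held a microRNA that defines nucleus pulposus, so the cell type labels were not checked further. Markers of other cells were low, with summed levels of 182 to 1392 CPM for the 3 of erythrocytes, 18.6 to 338 CPM for the 4 of leukocytes, 9.28 to 32.0 CPM for the 1 of liver and 37.1 to 132 CPM for 4 of the 5 of epithelium. The 2 endothelial markers, of a cell type rich in miR-221 and miR-222, summed to 277 to 754 CPM in NPC and 460 to 678 CPM in NPPC libraries. Their part in the level of the cluster was not tested.

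As a mean over libraries, the cluster made up 2.29% ± 0.778 (SD, n = 4) of all counts in NPC. In NPPC exosomes it made up 2.34% ± 0.152 (SD, n = 4). NPC replicate 1 held 3.43%, more than any other library, and the other NPC libraries held 1.70% to 2.12%, less than the 2.19% to 2.50% of the NPPC libraries. This split appears only with NPC replicate 1 set aside. How many names show it as a percent of counts was not computed. The order of the arms was the same in all 8 libraries, miR-221-3p, then miR-222-3p, then miR-221-5p, in estimated counts not divided by length, the rows being 23 or 24 bases long.

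miR-221-3p, the leading arm of the cluster, was the most abundant member and stood higher in NPPC exosomes, by less than the test over all names could call. The level of rno-miR-221-3p was 15825, 18191, 16539 and 16395 CPM in NPC replicates 1 to 4 and 19764, 19767, 22977 and 20752 CPM in NPPC replicates 1 to 4, scaled by TMM. The lowest NPPC library lay above the highest NPC library. Such a pattern was found in 24 of 390 names tested, 6.15% of them, and the opposite one in 18, 4.62%. Among all names it ranked from the 10th to the 14th place in NPC and from the 7th to the 9th in NPPC libraries.

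The NPC libraries averaged 16737 ± 1017 CPM of miR-221-3p (SD, n = 4). The NPPC libraries averaged 20815 ± 1514 CPM (SD, n = 4), a 1.24-fold difference. The log2 fold change of NPPC over NPC was 0.31 ± 0.12 (SE), with a 95% interval of 0.046 to 0.58. Its unadjusted p was 0.0268 (edgeR's quasi-likelihood test, two-sided), and its Benjamini-Hochberg adjusted p over 390 names was 0.387, so it did not pass. Of all names 16, or 4.1%, were higher in NPPC at an unadjusted p under 0.05, 25, or 6.41%, were lower, and 1, or 0.256%, passed after adjustment in either direction. With the replicate number as a block 0 names passed by edgeR, with 48 at an unadjusted p under 0.05, and the unadjusted p of miR-221-3p was 0.0608.

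The difference in miR-221-3p depended on the scaling of NPC replicate 1. As a share of all counts it took 2.59%, 1.78%, 1.44% and 1.59% in NPC replicates 1 to 4 and 2.00%, 1.84%, 2.05% and 1.83% in NPPC replicates 1 to 4, so NPC replicate 1 was the highest of all. With total count scaling the log2 fold change was 0.060 (adjusted p = 0.881, edgeR). Leaving out NPC replicate 1 gave 0.30 with TMM and 0.27 with total count scaling (adjusted p = 0.140 and 0.187, edgeR). A fit on the rat names alone gave 0.21 (unadjusted p = 0.127, adjusted p = 0.462, edgeR).

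miR-222-3p, which shares the seed and targets of miR-221-3p, was the second most abundant arm, and its groups overlapped through NPC replicate 1 alone. The level of rno-miR-222-3p was 5149, 3357, 2894 and 3351 CPM in NPC replicates 1 to 4 and 4281, 3687, 4853 and 4606 CPM in NPPC replicates 1 to 4. NPC replicate 1 was the highest of the 8 libraries and NPC replicates 2 to 4 were the lowest 3. All NPPC libraries lay above NPC replicates 2 to 4 in 34 of 390 names, 8.72% of them, among which were both 3p arms.

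The NPC mean of miR-222-3p was 3688 ± 998 CPM (SD, n = 4). The NPPC mean was 4357 ± 504 CPM (SD, n = 4), a 1.18-fold difference. The log2 fold change was 0.24 ± 0.21 (SE), with a 95% interval of -0.23 to 0.71 and an adjusted p of 0.596 by edgeR. With total count scaling it turned to -0.11 (adjusted p = 0.875), and in the fit on rat names alone it was 0.11 (adjusted p = 0.842). Leaving out NPC replicate 1 gave 0.46 ± 0.12 (SE), with an unadjusted p of 0.00538 and an adjusted p of 0.114 by edgeR, where 38 of 427 names, 8.9%, were higher at an unadjusted p under 0.05. With a correction of each library for GC content it was 0.61, with a 95% interval of 0.30 to 0.92. Its unadjusted p was then 0.00160 and its adjusted p 0.199 by edgeR. In that fit 23 of 390 names were higher and 7 lower at an unadjusted p under 0.05. The row of miR-222-3p has 54.2% GC and that of miR-221-3p 47.8%, the median of tested rat names being 47.6%. The part of GC content in the level of NPC replicate 1 was not tested beyond this correction.

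**Figure D1:**
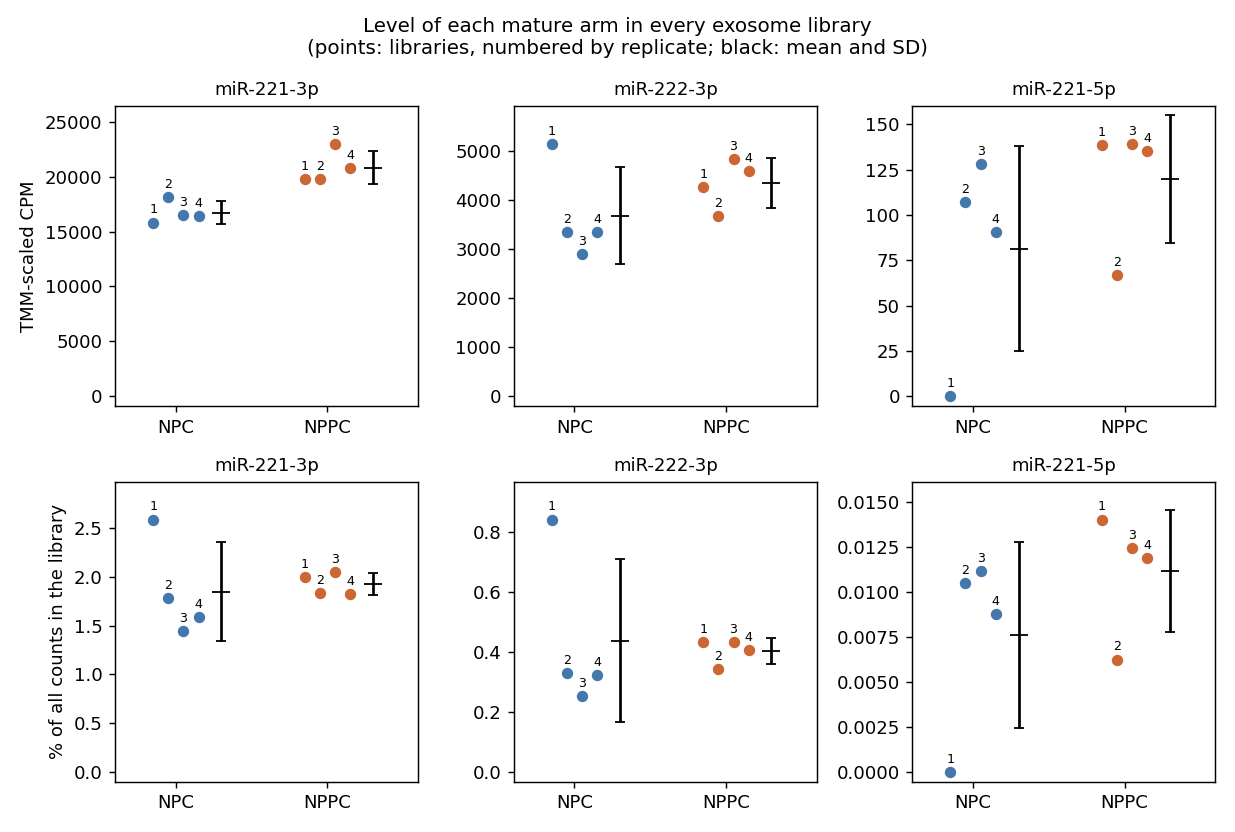
Level of the 3 mature arms in each library, as TMM-scaled CPM (upper row) and as a percent of all counts of the library (lower row). Points are libraries numbered by replicate, with the mean and SD of 4 in black. NPC replicate 1 is the highest library for both 3p arms as a percent of counts, and after scaling it lies at 15825 CPM for miR-221-3p and 5149 CPM for miR-222-3p.

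Both 3p arms passed in the fit without the libraries numbered 1 of both groups, a setting chosen after the data were seen. miR-221-3p then rose by 0.35 on the log2 scale (adjusted p = 0.0396) and miR-222-3p by 0.49 (adjusted p = 0.0486, edgeR). In that fit 20 of 423 names, 4.73%, passed as higher in NPPC.

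**Figure D2:**
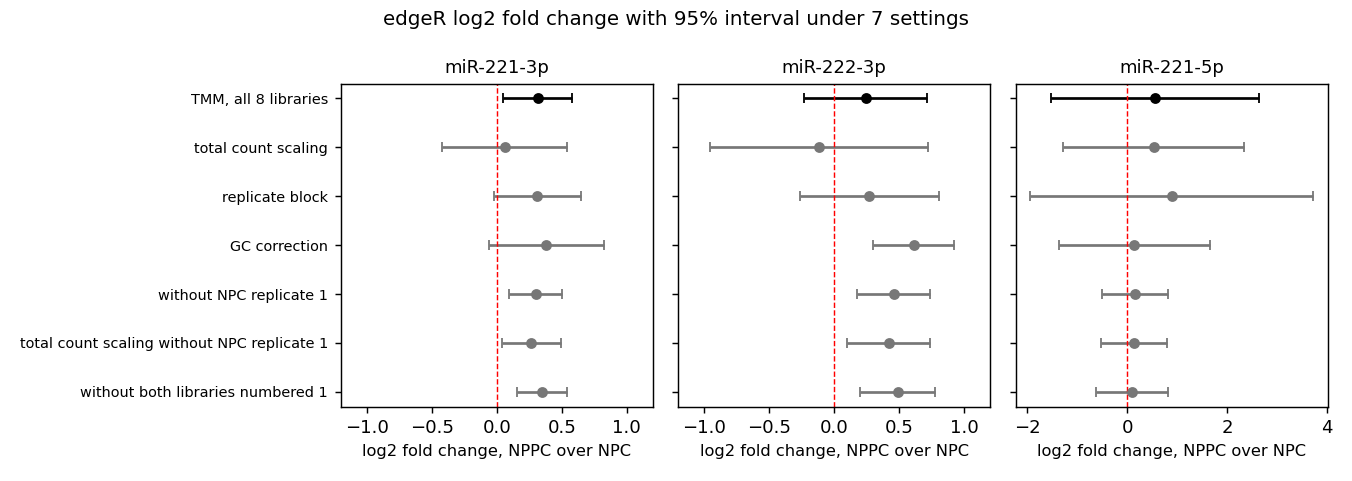
edgeR log2 fold change of NPPC over NPC with its 95% interval for each arm under 7 settings, with the axis of miR-221-5p on a wider range. For miR-221-3p all 7 values lie above 0, from 0.060 to 0.38, and for miR-222-3p the value with total count scaling, -0.11, lies below 0.

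miR-221-5p, the arm opposite to miR-221-3p that is mostly discarded when the duplex is loaded, was scarce. The row of rno-miR-221-5p had 0, 65, 76 and 47 counts in NPC replicates 1 to 4 and 115, 68, 176 and 156 counts in NPPC replicates 1 to 4, or 0, 107, 128 and 90.4 CPM and 139, 67.1, 139 and 135 CPM. NPC replicate 1 was listed at 0 and the groups overlapped. Its log2 fold change was 0.56 ± 0.91 (SE), with a 95% interval of -1.52 to 2.64 and an adjusted p of 0.783 by edgeR. Without NPC replicate 1 it was 0.15, with a 95% interval of -0.51 to 0.82.

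Of 4525 values above 0 in rows with a sequence of their own, 109 were under 5 and 493 equalled 5, so the listed 0 of miR-221-5p is not read as an absence. NPC replicate 1 was the shallowest library, and of 26 rat names with 40 to 100 counts in each other NPC library 3 were listed at 0 there. These 3 include miR-221-5p itself. The row of miR-221-5p has 37.5% GC. The part of depth and GC content in this 0 was not tested.

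The hairpins were then compared within each library, a measure that no scaling of libraries can change. A GC trend within a library can still enter it, the rows having 47.8% GC (miR-221-3p) and 54.2% GC (miR-222-3p). That part was not tested for the shares. miR-221-3p took 75.5%, 84.4%, 85.1% and 83.0% of the counts of both 3p arms in NPC replicates 1 to 4, and 82.2%, 84.3%, 82.6% and 81.8% in NPPC replicates 1 to 4. NPC replicate 1 was the lowest, at 3.07 counts of miR-221-3p for each of miR-222-3p, and the other 7 libraries lay between 4.51 and 5.72. The exact 95% binomial intervals of these shares were 0.796 to 1.60 percentage points wide, and cover counting error only.

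The mean share of miR-221-3p was 82.0% ± 4.45 (SD, n = 4) in NPC. In NPPC exosomes it was 82.7% ± 1.08 (SD, n = 4), a difference of 0.716 percentage points (two-sided exact permutation test, p = 0.971, adjusted over 2 shares 0.971). With 70 arrangements the smallest possible p is 0.0286. Without NPC replicate 1 the NPC mean was 84.2% ± 1.06 (SD, n = 3) and the difference turned to -1.47 percentage points (exact permutation p = 0.143). A difference in change between the 3p arms was thus not shown at this number of libraries.

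The 5p arm took 0%, 0.586%, 0.768% and 0.548% of miR-221 counts in NPC replicates 1 to 4 and 0.696%, 0.338%, 0.602% and 0.648% in NPPC replicates 1 to 4. NPPC replicate 2 was the lowest apart from the listed 0, and its exact 95% interval of 0.263% to 0.428% lay below those of the other NPPC libraries, which began at 0.516%. The means were 0.476% ± 0.331 (SD, n = 4) and 0.571% ± 0.160 (SD, n = 4), and the same exact permutation test gave a p of 0.686 (adjusted over 2 shares, 0.971). Without NPC replicate 1 the difference of 0.0955 percentage points turned to -0.0630 (exact permutation p = 0.657).

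**Figure D3:**
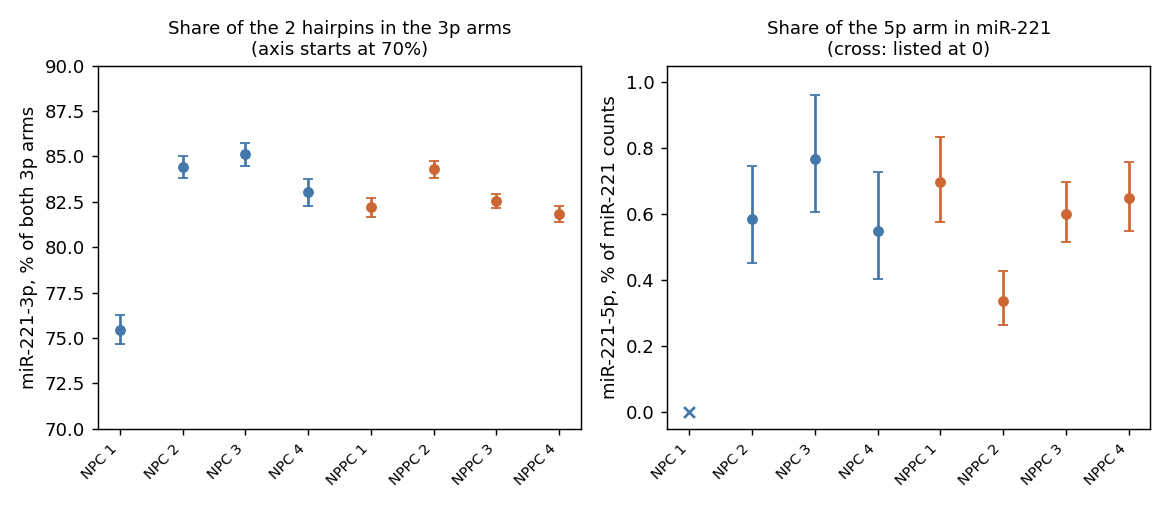
Share of miR-221-3p among the counts of both 3p arms (left, axis from 70%) and share of the 5p arm among miR-221 counts (right) in each library, with exact 95% binomial intervals and NPC in blue, NPPC in orange. NPC replicate 1 is the lowest in both panels, at 75.5% and at a listed 0.

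Over all libraries the 5p arm made up 0.549% of miR-221 counts. Of 42 rat hairpin names with both arms named and at least 8000 counts, a minimum set after the table had been seen, 17 had a smaller minor arm, and the median was 0.750%. Left out were 114 hairpin names of any count with only 1 arm named, miR-222 among them, so the rank holds only where both arms were listed. Leaving out NPC replicate 1, the 5p arm made up 0.588%, and 18 of the same 42 had a smaller minor arm. The 5′ side of the miR-222 hairpin was present in another row, mir-222-p5, whose 20 bases are printed because they lie outside the RefSeq arm.
mir-222-p5 row: aggattagggtgccctcagt
It covers bases 2 to 21 of the hairpin and ends at the base before miR-222-5p, which starts at base 22. It had 5 counts in NPC replicate 1, 5 in NPPC replicate 3, 13 in NPPC replicate 4 and 0 in the other libraries, too few for the test.

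The patterns of the 2 hairpins over the 8 libraries were not each other's closest. Likeness was measured as the root mean square difference of centred log2 CPM over the 8 libraries, which share the scaling and the position of NPC replicate 1. Between miR-221-3p and miR-222-3p it was 0.26, which placed miR-222-3p at rank 30 of 277 other rat names for miR-221-3p, and miR-221-3p at rank 20 for miR-222-3p. Nearest to miR-221-3p were miR-27a-3p (0.11), miR-107-3p (0.14) and miR-125b-5p (0.16). Their Pearson correlations with it over the 8 libraries were 0.80, 0.77 and 0.47, beside 0.42 for miR-222-3p. A name that varies little can be near by this measure, and the SD of log2 CPM was 0.14 for miR-125b-5p and 0.30 for miR-222-3p. Nearest to miR-222-3p were miR-652-3p (0.13), also of chromosome X, miR-145-5p (0.14) and miR-31a-5p (0.16). Over the 7 libraries without NPC replicate 1 the difference between the 3p arms was 0.12, and the ranks were 13 and 3. The nearest to miR-221-3p were then miR-652-3p (0.087), miR-145-5p (0.094) and miR-27a-3p (0.095), and to miR-222-3p miR-362-5p (0.10), miR-145-5p (0.11) and, after miR-221-3p itself, miR-132-5p (0.14). The NPC mean of miR-27a-3p was 5969 ± 430 CPM (SD, n = 4) and its NPPC mean 7201 ± 581 CPM (SD, n = 4), with a log2 fold change of 0.27 ± 0.13 (SE).

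The pathway lists were read beside the names of their own kind, the 278 rat names tested, whose median log2 fold change was 0.19 with all libraries, 0.084 without NPC replicate 1 and -0.023 with total count scaling. Over all 390 names the median was -0.038. Of the rat names 60.1% lay above 0 with all libraries, 57.6% without NPC replicate 1 and 47.1% with total count scaling. With all libraries 8.99% of rat names had an unadjusted p under 0.05 by edgeR. Of the 6 other microRNAs known to repress Cdkn1b, all tested, 2 lay above 0, 4 below and 0 passed by edgeR (0 also at an unadjusted p under 0.05), with a median log2 fold change of -0.054. In the fit without NPC replicate 1, 4 lay above 0 with a median of 0.058, and with total count scaling 2 did, with a median of -0.34. The most abundant were miR-152-3p at -0.16, miR-148a-3p at -0.25, miR-24-3p at -0.097 and miR-181a-5p at -0.011. Leaving out NPC replicate 1 turned miR-24-3p to 0.14 and miR-181a-5p to 0.082. Of the microRNAs known to repress Kit 3 of 4 were tested, 3 lay above 0 and 0 passed by edgeR (1 at an unadjusted p under 0.05), with a median of 0.45. The 3 also lay above 0 without NPC replicate 1 (median 0.54) and with total count scaling (median 0.35). They were miR-494-3p at 0.44, which was 0.15 without NPC replicate 1, miR-34a-5p, a p53 target, at 0.67 (unadjusted p = 0.0191, adjusted p = 0.380, edgeR) and miR-193b-3p at 0.45.

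Among microRNAs of the smooth muscle phenotype, where miR-221 and miR-222 are known to favour growth, 8 of 9 were tested. Of these 6 lay above 0, 2 below and 1 passed by edgeR (the same 1 at an unadjusted p under 0.05). The median log2 fold change was 0.28. With total count scaling 3 lay above 0 and 5 below, with a median of -0.023, and without NPC replicate 1 it was 7 of 9 above 0, with a median of 0.18. The one that passed with all libraries was miR-146a-5p, an inducible regulator of NF-kappaB signalling, at 3.38 ± 0.48 (SE) with an adjusted p of 0.0318 by edgeR. It passed in 13 of 22 alternatives, and did not pass with the replicate block, for unsummed rows or in 7 of the 8 fits with a library left out, the exception being the fit without NPC replicate 1. The most abundant were miR-21-5p at 0.53, miR-143-3p at -0.19, miR-26a-5p at 0.45 and miR-24-3p, which is also on the Cdkn1b list. Without NPC replicate 1 miR-21-5p was 0.18 and miR-26a-5p 0.13. Of the 8 angiogenesis microRNAs, all tested, 2 lay above 0, 6 below and 0 passed by edgeR (1 at an unadjusted p under 0.05), with a median of -0.13. Without NPC replicate 1 the median was -0.065, with 3 above 0, and with total count scaling it was -0.34, with 2 above 0. The most abundant were miR-27b-3p at -0.044, miR-92a-3p at -0.41, miR-210-3p, a hypoxia-induced microRNA, at -0.42 and miR-126a-3p, an endothelial microRNA, at -0.14. In the fit without NPC replicate 1, 18.6% of rat names had an unadjusted p under 0.05 (edgeR). The lists had 1 of 6 (Cdkn1b), 2 of 3 (Kit), 4 of 9 (smooth muscle) and 1 of 8 (angiogenesis). For comparison, in the main fit all 3 members of the cluster lay above 0, as did 190 of 390 names (48.7%) and 167 of 278 rat names (60.1%). With total count scaling miR-222-3p turned below 0.

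**Figure D4:**
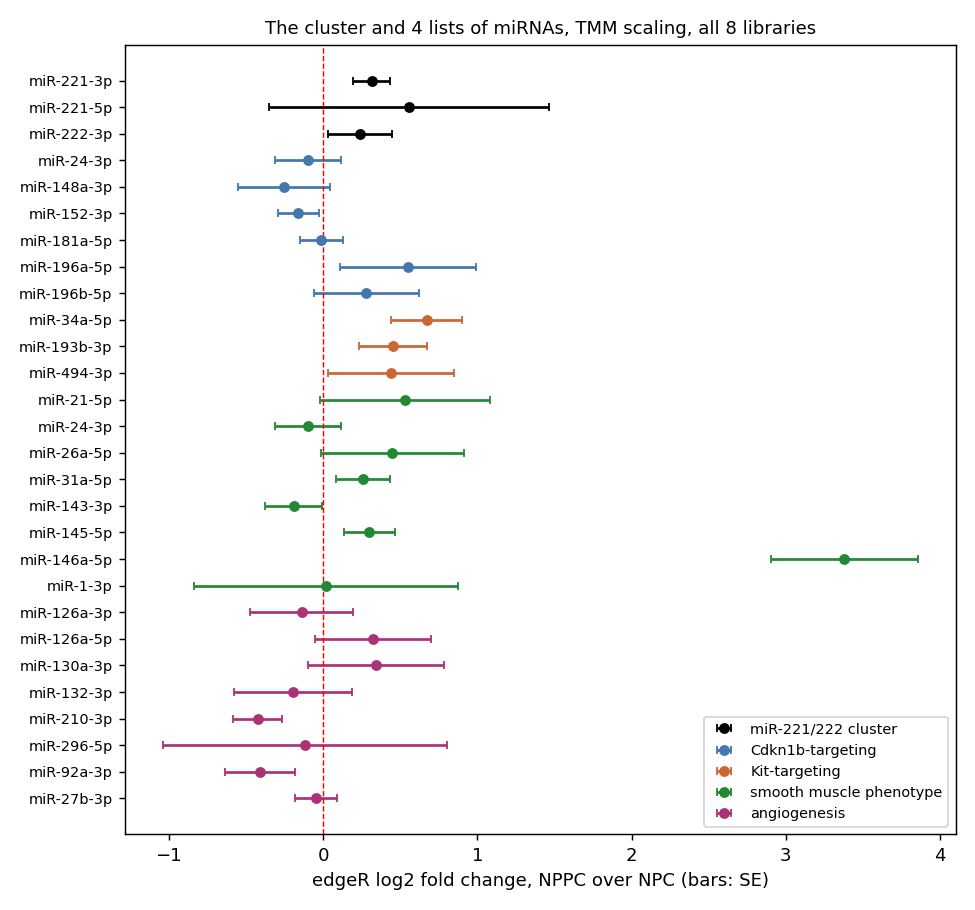
edgeR log2 fold change of NPPC over NPC, with its SE, for the 3 members and the tested microRNAs of the 4 lists. miR-146a-5p lies apart at 3.38, and the 3p arms at 0.31 and 0.24 lie within the range of the other listed names.

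Of 51 rat names with a hairpin on chromosome X, 34 besides the members were tested, of which 20 lay above 0, 14 below and 0 passed by edgeR, with a median log2 fold change of 0.14. That is 58.8% above 0, beside 60.1% of rat names. Without NPC replicate 1, 15 of 36 lay above 0, 41.7% beside 57.6% of rat names, and with total count scaling 16 of 34, 47.1% beside 47.1%. miR-221-3p was the most abundant of them and miR-222-3p the third. Between them stood let-7f-5p at 0.74 ± 0.86 (SE), and next came miR-92a-3p at -0.41 ± 0.23 (SE), both summed with a row on another chromosome. At an unadjusted p under 0.05 there were 4, or 11.8%, beside 10.5% of all names and 8.99% of rat names. They are named for that value after it was seen. These were miR-17-5p at 0.65, miR-351-5p at -0.69, miR-503-5p at -0.71 and miR-224-5p at -0.66. Of them miR-17-5p, the only one above 0, was likewise summed with a row on another chromosome. The share depended on the setting. Without NPC replicate 1 it was 12 of 36, 33.3% beside 18.6% of rat names. With total count scaling it was 6 of 34, 17.6% beside 7.91%. With the GC correction it was 3 of 34, 8.82% beside 8.99%. Names of the same chromosome thus lay on both sides of 0.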

How the data were processed

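Per miRNA row, the table deposited by the authors gave estimated counts (82.3% of values above 0 were whole within 1e-09) and scaled signal columns that equal the count times 1 factor per library. Libraries were made with a TruSeq small RNA kit, per the labels' protocols, and the submitters' processing notes name CASAVA 1.8. How reads were matched to miRNAs was not given in the sources used here.

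Rows were summed per mature name with the species prefix kept and rounded. edgeR 4.0.16 in R 4.3.3 was fitted with TMM factors, filterByExpr and no covariate besides group, and p-values were adjusted by Benjamini-Hochberg over 390 names (278 rat, 76 of other species, 36 candidates). TMM entered the CPM, and the prior count for log2 CPM was 2. Within-library shares were tested between groups by exact permutation, two-sided. For the GC correction, loess fits (span 0.75) of log2 CPM on GC percent, 1 per library, served as offsets. Same-numbered libraries had correlated deviations (0.116 to 0.565, every pair over 0.1), by which the number was used as a block, in the alternatives only. The main fit and the share tests given above treated the libraries as unpaired. No label states a pairing, pairs of different numbers reached 0.355, and 4 of the 8 libraries correlated best with their own number.

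Alternatives were total count, upper-quartile and the authors' scaling, the GC correction, DESeq2 1.42.0, limma-voom (limma 3.58.1), other filters, unsummed rows, rat names alone, the replicate block and leaving out libraries.

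Named were the members, names of the same seed, the 3 nearest names of each 3p arm, up to 4 names per list by mean CPM and any that passed, and the 4 most abundant names of chromosome X. Members and lists were chosen with earlier results of these data known. Of the planned shares, those with miR-222-5p could not be computed.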

Additional observations from a re-analysis of the deposited data

Results flagged for a closer look

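miR-221-5p stood at 67.1 CPM in NPPC replicate 2, far from the 135 to 139 CPM of the other NPPC libraries. Its count there was 68, against 115 to 176. It was the 1 such case in 10 sets of 4 libraries looked at, and chance alone marks about 1 set in 20.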

How the results depend on the processing

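Over 22 alternatives the log2 fold change of miR-221-3p ran from 0.060 to 0.43 and that of miR-221-5p from 0.10 to 1.69, all above 0, and that of miR-222-3p from -0.11 with total count scaling, the 1 alternative below 0, to 0.61. Adjusted p ran from 0.0396 to 0.881 for miR-221-3p, from 0.414 to 0.970 for miR-221-5p and from 0.0486 to 0.875 for miR-222-3p. The 3p arms passed in 1 alternative, without both libraries numbered 1 (0.35 and 0.49), which was chosen after the data were seen, as was total count scaling without NPC replicate 1. With a library left out they ran from 0.29 to 0.41 and from 0.20 to 0.46. Total count scaling moved the median of all names from -0.038 to -0.29 and the GC correction moved it to 0.10. In both settings miR-222-3p stayed above this median. The median of the rat names went from 0.19 to -0.023 with total count scaling and to 0.16 with the GC correction. Against that median miR-222-3p lay below with total count scaling, at -0.11, and above with the GC correction, at 0.61. With the replicate block the 3 arms were at 0.31, 0.27 and 0.89 in the order miR-221-3p, miR-222-3p, miR-221-5p, and no call on a member changed.

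The number of names called by edgeR, 1 with 41 at an unadjusted p under 0.05, was 8 without a filter, 6 by DESeq2, 0 with the replicate block (48 unadjusted), 0 for unsummed rows (59 unadjusted), 42 without both libraries numbered 1, and 0 to 1 with a library left out (23 to 86 unadjusted). Higher and lower names at an unadjusted p under 0.05 numbered 16 and 25, but 10 and 33 when scaled by total count, 23 and 20 by the authors' factors, 21 and 17 by the upper quartile and 23 and 7 with the GC correction.

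With a library left out the difference in the share of miR-221-3p among 3p counts ran from -1.47 to 1.75 percentage points and that of the 5p share from -0.0630 to 0.193, both turning below 0 without NPC replicate 1. Each member had 1 rat row and no row of another species' name for its arm, so taking the highest rat row or adding other species' rows left the member counts as they were. In the fit on rat names alone miR-221-3p was at 0.21, miR-222-3p at 0.11 and miR-221-5p at 0.50, and in that of unsummed rows at 0.38, 0.31 and 0.60. Counts of 0 (NPC replicate 1) to 176 limit miR-221-5p.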
